A study of Mus musculus with 9 samples.

Results

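The regions described are 3' UTRs longer than 4000 bases in which at least 1 count fell in any library. They were chosen by annotated length and the presence of a count alone: 1426 genes had a 3' UTR above the length limit, and 1252 of these held a count, of 10848 3' UTRs with a count in all. Each of the 1252 is compared across the 3 groups of libraries and with the coding sequence (CDS) of its own gene.

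The 3' UTR is the stretch of an mRNA between the stop codon and the poly(A) tail. It carries sites for microRNAs and RNA-binding proteins that set how stable an mRNA is, where it is kept and how often it is translated. Neurons and neuron-derived cells are known for long 3' UTRs, made by use of poly(A) sites far from the stop codon. Chtop is an RNA-binding protein of the TREX complex, which couples transcription and processing to the export of mRNA from the nucleus.

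Chtop was crosslinked to RNA in N2a Flp-In rtTA cells, a mouse neuroblastoma line with a site for single-copy insertion and a doxycycline-dependent activator, and the bound RNA was sequenced by iCLIP. The first group held FLAG-tagged Chtop that includes exon 5 (3 libraries) and the second held FLAG-tagged Chtop that lacks it (3 libraries). All lines were induced with 2 µg/mL doxycycline for 24 hours and irradiated at 254 nm with 0.15 J/cm2, and the isoforms were recovered with an anti-FLAG antibody. The third group held 3 size-matched inputs, RNA of the same gel size range taken from 2% of lysate with no antibody step. Per the labels, input 1 came from the line lacking exon 5, input 2 from the line including it and input 3 from a line with FLAG-GFP, so each input has a different source. The tagged proteins were expressed from the induced cDNA beside the cells' own Chtop, and the labels do not say whether the lines were clonal. Replicates were harvested and processed on separate days.

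Libraries held 624062 to 1844970 counts for the isoforms and 75504 to 173342 for the inputs, over the 5' UTR, CDS and 3' UTR together. In the 3' UTR, 3 counts in a library equalled 8.44 to 17.4 CPM (counts per 1000000 counts of that part, scaled with TMM) for the isoforms and 34.5 to 42.2 CPM for the inputs, so a low value in an input is known far less well. Of 16 genes that mark sympathetic neurons and neuroblastoma, 10 were named in the files and all 10 had counts. Per 1000000 counts of the whole library, without TMM, their summed level was 1095 to 1991 in the isoform libraries and 861 to 2233 in the inputs. Of 17 markers of other cell types, 9 were named, and on the same scale their sum was 9.21 to 36.8 in the isoform libraries and 0 to 146 in the inputs. Alb, Apoa1, Aldh1l1 and Col1a2 had no count in any library.

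The median length of the 1252 regions was 5183.5 bases, with quartiles at 4454 and 6393.5 bases, against a median of 1319.5 bases for the 9596 counted 3' UTRs of 4000 bases or less. Their CDS was only slightly longer, with a median of 1636.5 bases against 1422 bases. They made up 11.5% of the counted 3' UTRs and 33.2% of the counted 3' UTR bases. Of the 1252 genes, 930 had a symbol in the files and 322 did not. The median region held 139 counts over all 9 libraries, 723 held 100 or more, and 171 held fewer than 10. In 212 regions the inputs had no count, in 46 the isoforms had none, and 249 genes had no CDS count in any library. The lengths are those of the authors' deposited table, and how they combine transcripts is not stated in the file or labels. For 17 of the 925 genes with RefSeq coordinates, the listed 3' UTR was longer than the whole gene. These 17 include D10Wsu102e (122586 bases against a gene of 8615 bases), Macir (40703 against 18117 bases), Zbed6 (7216 against 5007 bases) and Eme2 (4095 against 2936 bases). A length that is too long lowers a per-base level, and whether all counts of such a region come from the named gene was not tested.

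Per base, the isoforms were found on the CDS of these genes far more than on their long 3' UTRs, while in the inputs both parts were covered about alike. The density ratio is the summed 3' UTR counts per base over the summed CDS counts per base. It was 0.307, 0.318 and 0.272 in the 3 libraries with exon 5 (mean 0.299 ± 0.0238, SD, n = 3) and 0.283, 0.284 and 0.259 in the 3 without it (0.275 ± 0.0145). The inputs had 0.890, 0.918 and 0.975 (0.928 ± 0.0432). All 6 isoform libraries lay below all 3 inputs, and the ranges of the 2 isoforms overlapped. No test was made on these sums. The ratio was 3.11-fold higher in the inputs than with exon 5 and 3.37-fold higher than without it. For the shorter 3' UTRs the ratio ran from 0.525 to 0.600 in the isoform libraries and from 1.24 to 1.48 in the inputs, a difference of 2.38-fold and 2.42-fold. Part of the shorter regions' input density came from Lars2, and without it their inputs ran from 1.05 to 1.28.

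Both parts contributed. The long 3' UTRs had a summed level of 7.89 to 9.88 RPKM (counts per kilobase per 1000000 counts of the library, not TMM-scaled) in the isoform libraries against 15.1 to 16.4 RPKM in the inputs. The CDS of the same genes had 29.8 to 33.3 RPKM in the isoform libraries against 16.4 to 17.9 RPKM in the inputs. Both levels share the library total, so a larger CDS share by itself lowers the 3' UTR level. With TMM scaling the median fitted log2 fold change of the members' 3' UTRs over the inputs was 0.59 with exon 5 and 0.51 without it. Of the counts these genes had in the 2 parts together, 43.1% to 48.3% lay in the 3' UTR in the isoform libraries and 72.3% to 74.1% in the inputs. The shift was not limited to long 3' UTRs, since 3' UTRs as a whole held 27.5% to 30.9% of an isoform library and 48.9% to 51.6% of an input.

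**Figure D1:**
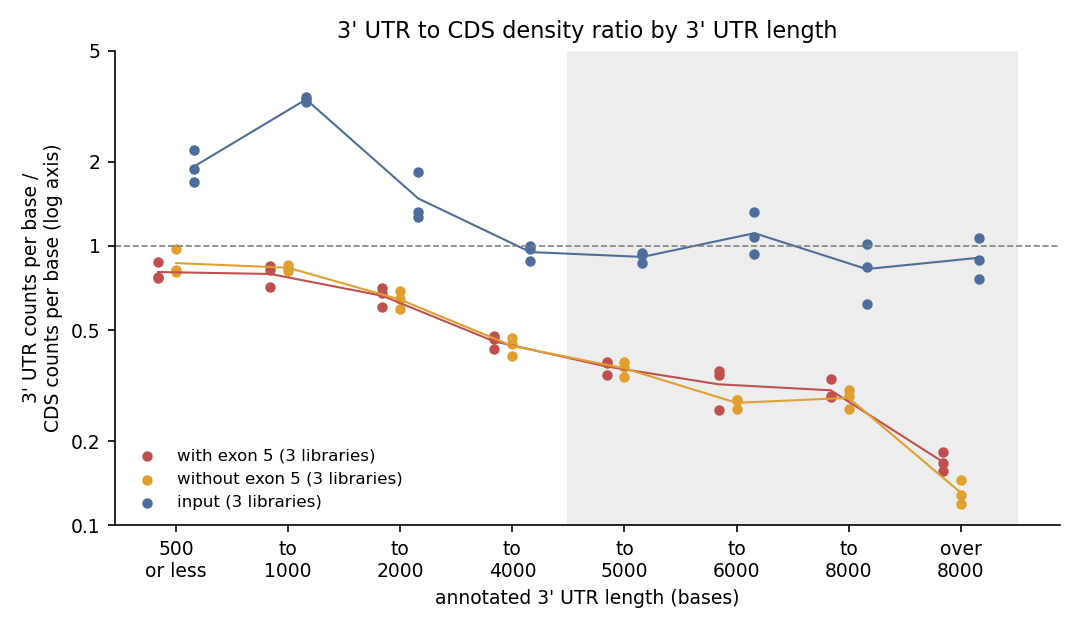
3' UTR to CDS density ratio (counts per base, log axis) of 8 classes of annotated 3' UTR length, with 1 point per library in 3 colours for the exon 5 isoform, the isoform without exon 5 and the inputs, and lines through the group means; the shaded classes are the 3' UTRs longer than 4000 bases. The isoform means fall from 0.807 (with exon 5) and 0.868 (without) in the shortest class to 0.455 and 0.439 in the class up to 4000 bases, and to 0.169 and 0.131 above 8000 bases. The input means fall as well over the shorter classes, from 1.93 to 0.951 in the class up to 4000 bases, and lie between 0.827 and 1.11 in the long classes; the input peak of 3.35 in the class up to 1000 bases is 1.57 without Lars2.

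Within the long regions the ratio fell further with length in the isoforms. With exon 5 it was 0.371 ± 0.0216 for the 558 regions up to 5000 bases, 0.320 ± 0.0530 for the 300 up to 6000 bases, 0.304 ± 0.0260 for the 259 up to 8000 bases and 0.169 ± 0.0139 for the 135 above 8000 bases. Without exon 5 the same classes gave 0.365, 0.275, 0.286 and 0.131. The inputs gave 0.914 ± 0.0372, 1.11 ± 0.195, 0.827 ± 0.201 and 0.908 ± 0.152, with no order by length beyond the spread of the 3 libraries. Leaving out the 2 regions above 20000 bases moved the last class to 0.182, 0.140 and 0.754. The low ratio above 8000 bases with exon 5 combined the lowest 3' UTR level of the long classes (7.07 RPKM) with the highest CDS level (42.1 RPKM). Across 616 genes with 20 or more counts in each group, Spearman's rho between length and the ratio was -0.32 with exon 5, -0.27 without it and 0.01 in the inputs. These points share their libraries, and length enters both sides of the correlation.

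Gene by gene, the same picture held for most but not all members. Among these 616 genes the median ratio was 0.326 with exon 5, 0.291 without it and 1.29 in the inputs. The 3' UTR had a lower density than the CDS in 529 genes with exon 5, in 567 genes without it and in 270 genes in the inputs. The median share of a gene's counts that lay in the 3' UTR was 48.9%, 45.4% and 79.3%. With exon 5 the share was below the input in 464 genes, and without exon 5 in 500 genes, and both comparisons use the same 3 inputs. The 3 libraries with exon 5 all lay below all 3 inputs in 105 genes (17.0%, against 6.57% of all 3470 genes with 20 or more counts in each group) and above them in 5 (0.812%, against 2.74% of all). For the isoform without exon 5 these numbers were 112 (18.2%, against 7.72%) and 5 (0.812%, against 3.31%).

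**Figure D2:**
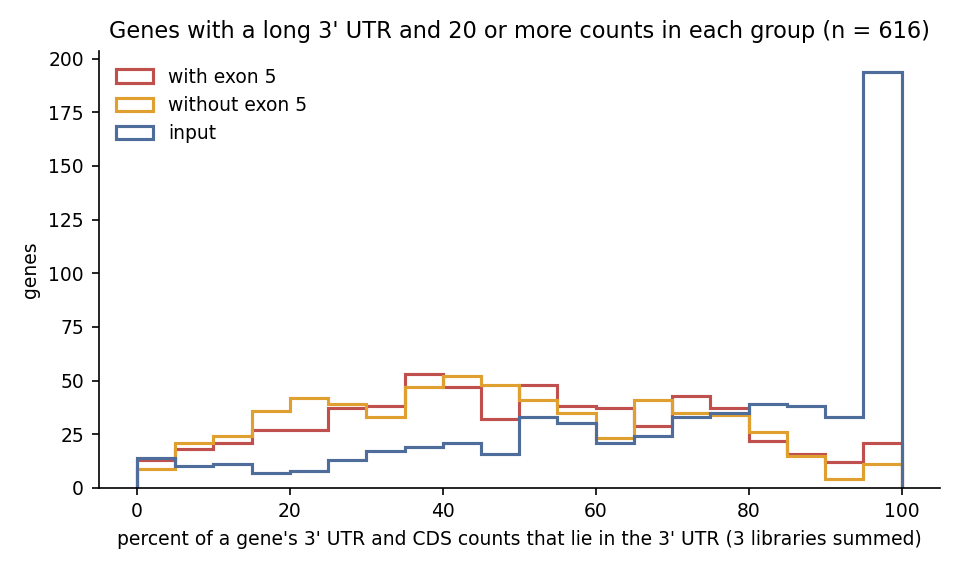
Histogram of the percent of a gene's 3' UTR and CDS counts that lie in the 3' UTR, for 616 genes with a long 3' UTR and 20 or more counts in each group, with the 3 libraries of a group summed. Both isoforms spread broadly around medians of 48.9% and 45.4%, whereas the inputs pile up at the right edge, where 160 genes had no CDS count.

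The inputs were patchy at the level of single regions. Of regions with 20 or more counts in a group, 735 of 853 (86.2%) had counts in all 3 libraries with exon 5 and 767 of 836 (91.7%) in all 3 without it, but only 228 of 530 (43.0%) in all 3 inputs. In 108 of these 530 regions (20.4%), 1 input library held at least 90% of the counts, against 3.87% and 2.51% of regions for the isoforms. The CDS of the same genes was patchier still in the inputs, with 54 of 242 (22.3%) counted in all 3. The part of this patchiness in the results that follow was not tested.

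The long regions held nearly the same share of 3' UTR counts in every group, although the density differed. They took 23.5%, 24.1% and 23.9% of the 3' UTR counts with exon 5, 20.7%, 21.5% and 21.1% without it and 22.6%, 24.0% and 22.8% in the inputs. The 2 isoforms did not overlap, and the inputs overlapped the isoform with exon 5. The 10 regions with most counts over all 9 libraries held 18.8% to 26.0% of the members' counts in the isoform libraries and 9.25% to 12.2% in the inputs. Most member counts come from the isoform libraries, so this choice favours regions that are high there. It does not show whether the inputs were less concentrated. Without Avl9 and Fbxl20 the mean shares were 21.0%, 17.97% and 22.8%.

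**Figure D3:**
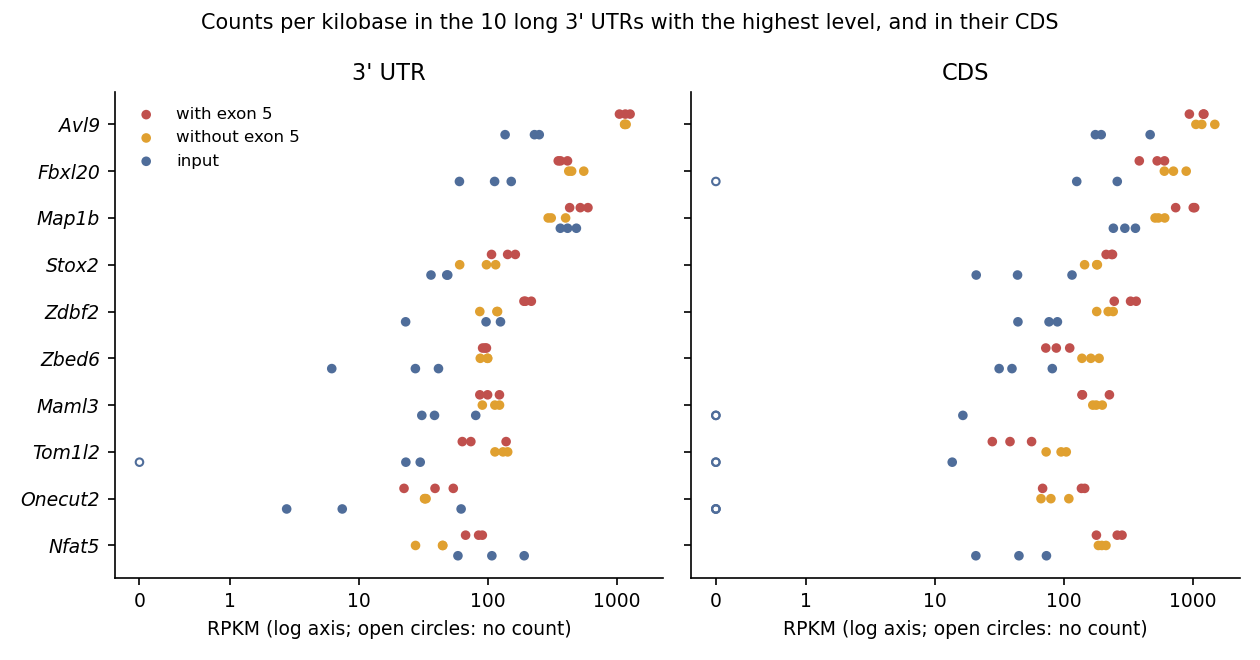
RPKM (log axis) in the 3' UTR (left) and CDS (right) of the 10 long 3' UTRs with the highest mean level in the isoform libraries, 1 point per library in 3 colours, with open circles for libraries without a count. Avl9 and Fbxl20 stand above their inputs in the 3' UTR in all 6 isoform libraries, while Map1b and Nfat5 overlap or lie close to theirs on this scale.

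Avl9, the mouse relative of a yeast gene of the late secretory pathway (chr6:56714839-56761912, GRCm38.p6), was the largest single source of counts. Its 3' UTR of 4709 bases held 3880, 4679 and 7953 counts with exon 5, 3398, 5454 and 10288 without it and 72, 205 and 82 in the inputs. That is 6.82% to 9.62% of all member counts in the isoform libraries and under 1% in each input. Every isoform library stood above every input. The level was 1163 ± 110 RPKM with exon 5, 1164 ± 17.5 without it and 206 ± 61.1 in the inputs. The fitted log2 fold change over the inputs was 3.82 ± 0.47 (SE; adjusted p = 0.000274, edgeR quasi-likelihood test) with exon 5 and 3.99 ± 0.47 (adjusted p = 0.00016) without it. Its CDS rose as well, by 2.68 (adjusted p = 0.0153) and 2.82 (adjusted p = 0.0168). Its density ratio, with the libraries of a group summed, was 1.04 and 0.893 in the isoforms and 0.785 in the inputs. The low input value rests on input 1. The 3' UTR held 41.1%, 77.4% and 73.9% of its counts in the 2 parts in the inputs, and 65.7% to 72.8% in the isoform libraries. The 3' UTR relative to the CDS did not pass edgeR's test with either isoform (adjusted p = 0.947 with exon 5).

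Fbxl20, the substrate-binding F-box subunit of a ubiquitin ligase (chr11:98082554-98150921), followed. Its 3' UTR of 7389 bases held 2042, 2309 and 4083 counts with exon 5, 1962, 3326 and 7578 without it and 50, 145 and 85 in the inputs, and the isoforms did not overlap the inputs. The log2 fold change was 3.19 ± 0.52 (adjusted p = 0.00633) and 3.72 ± 0.53 (adjusted p = 0.00155). Its CDS had 21, 67 and 0 counts in the inputs and did not pass the test (adjusted p = 0.128 and 0.0745). Avl9 and Fbxl20 were called in the 3' UTR against the inputs whichever of the 9 libraries was left out, with the highest adjusted p at 0.045.

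Map1b, a microtubule-binding protein of growing axons, had the third most counts, with 1496, 2252 and 3065 with exon 5, 857, 1785 and 2399 without it and 206, 373 and 122 in the inputs. Per kilobase of its 4416-base 3' UTR this was 518 ± 83.5, 336 ± 57.9 and 423 ± 61.0 RPKM, so the inputs lay between the isoforms on that scale. The fitted log2 fold changes, 1.60 ± 0.52 and 1.13 ± 0.52, did not pass the test (adjusted p = 0.0531 and 0.135). The CDS of Map1b was 922 ± 164, 550 ± 48.6 and 298 ± 58.3 RPKM. It rose by 2.25 ± 0.38 (adjusted p = 0.014) with exon 5 and by 1.49 ± 0.37 (adjusted p = 0.0275) without it, and its density ratio was 0.554, 0.595 and 1.51.

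The other 7 of the 10 highest regions fell into 2 kinds. In Stox2, Zbed6, Maml3 and Tom1l2 the 3' UTR passed the test against the inputs with both isoforms, and in Zdbf2 with exon 5 only, while Onecut2 and Nfat5 did not pass it with either. Stox2, a winged-helix protein, had 734, 1063 and 1902 counts, then 331, 860 and 1859, against 48, 73 and 24 in the inputs (log2 fold changes 2.96 and 2.56, adjusted p = 0.0202 and 0.025). Zbed6, a transcription factor whose gene lies within Zc3h11a so that reads of the 2 genes may not be separable, had 517, 601 and 914, then 449, 726 and 1167, against 5, 52 and 15 (3.16 and 3.33, adjusted p = 0.0289 and 0.0219). All 6 isoform libraries exceeded the inputs in both genes. Maml3, a coactivator of Notch signalling, had log2 fold changes of 2.52 and 2.79 (adjusted p = 0.0414 and 0.0278), and Tom1l2, an adaptor of endosomal traffic, 3.52 and 4.16 (adjusted p = 0.0397 and 0.0234). Zdbf2, an imprinted zinc finger gene, had 2.56 (adjusted p = 0.0409) and 1.81 (adjusted p = 0.098). Whether the 2 isoforms differed was tested directly, and none of the 10 passed.

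Onecut2 and Nfat5 are transcription factors, the first of neuronal and liver development and the second of the response to osmotic stress. The 3' UTR of Nfat5, 8348 bases long, had 595, 605 and 748 counts with exon 5, 234, 375 and 425 without it and 55, 156 and 121 in the inputs (adjusted p = 0.43 and 0.976). Its level was 81.2 ± 12.2, 39.1 ± 9.93 and 120 ± 67.3 RPKM, lowest without exon 5 and most variable in the inputs. The Nfat5 CDS stood at 239 ± 54.3, 197 ± 13.4 and 46.2 ± 26.2 RPKM and rose by 2.81 (adjusted p = 0.0248) and 2.53 (adjusted p = 0.0334). The Onecut2 CDS had 162, 88 and 291 counts with exon 5, 103, 101 and 221 without it and none in any input. At 3 counts per input library, that is at least 10.5-fold and 7.61-fold higher than the inputs (adjusted p = 0.0154 and 0.0187). Without an input count, this CDS passed the low-count filter through the isoform libraries and could only be called higher. The Onecut2 3' UTR, with 12, 155 and 3 counts in the inputs, did not pass (adjusted p = 0.244 and 0.272).

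By edgeR, a smaller share of long 3' UTRs than of all 3' UTRs tested rose against the inputs. A filter on low counts left 822 of the 1252 for the test, and 430 were not tested. With exon 5, 44 of the 822 rose against the inputs (5.35%), where 10.1% of all 4984 3' UTRs tested rose, and 6 fell (0.730%, against 0.562% of all). Without exon 5, 46 rose (5.60%, against 12.3% of all) and 3 fell (0.365%, against 0.381%). The 2 comparisons share the 3 inputs. No input count was found for 54 of the 822 members and for 1068 of all 4984, and such regions could only be called higher. The part of this in the difference of the shares was not tested. With limma-voom the shares with exon 5 were alike, at 7.66% of members and 7.76% of all, and without exon 5 they were 8.52% and 13.2%. The median fitted log2 fold change of the members was 0.59 with exon 5 and 0.51 without it, against 1.37 and 1.41 over all 3' UTRs tested. With regions that had no input count set to their bound, these medians became 0.50 and 0.45 for the members and 0.93 and 1.00 for all. The share of tested regions that rose was lower in longer classes, from 6.65% of regions up to 5000 bases to 4.74%, 4.57% and 3.13% in the 3 longer classes with exon 5.

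These calls rest on few libraries. Leaving out any 1 of the 3 libraries with exon 5 left 2 calls for that isoform (Avl9 and Fbxl20), of 6 to 11 over all 3' UTRs. Leaving out the third library without exon 5 left 2 calls for the other, of 9 over all. Leaving out the second input raised the calls to 189 and 191 of 871 members. Of all 5900 3' UTRs tested there, 1422 and 1394 were called (24.1% and 23.6%), close to the share of the members. TMM scaling places the isoforms higher against the inputs than library totals do. With totals alone the median log2 fold change of all 3' UTRs was lower by 0.49 and 0.57, that of the members was 0.12 and -0.14, and 28 (20 higher) and 25 (18 higher) members were called. Of all 4984 3' UTRs, 199 (165 higher) and 206 (184 higher) were called with totals alone (3.99% and 4.13%).

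Of the 44 regions that rose with exon 5, 19 had no count in any input, as had 24 of the 46 without exon 5. In all 44 and all 46 the 3 isoform libraries lay above all 3 inputs. Over all tested members the isoform libraries lay above the inputs in 198 with exon 5 and in 205 without it (24.1% and 24.9%, against 32.4% and 37.4% of all 3' UTRs tested), and below them in 44 and 43 (against 3.11% and 3.01% of all). The regions with no input count could pass the low-count filter only through the isoform libraries, so only a rise could be called for them. Their folds given below are lower bounds, computed against 3 counts per input library, and p-values are adjusted over all 4984 regions.

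Pde10a, a phosphodiesterase that breaks down cyclic nucleotides and is typical of the striatum, had 93, 135 and 138 counts with exon 5, 79, 130 and 172 without it and 0 in the inputs. It was at least 12.5-fold and 12.7-fold higher than the inputs (adjusted p = 0.0171 and 0.0143). Its CDS, by contrast, had 54, 38 and 0 counts in the inputs and did not pass. Klhl29, a kelch-repeat protein, was close to equal in the isoforms too, at least 7.91-fold and 8.60-fold higher (adjusted p = 0.0198 and 0.0156). Ncoa2, a coactivator of nuclear receptors, was at least 8.42-fold and 5.68-fold higher (adjusted p = 0.0198 and 0.0191), with 103, 70 and 66 counts, then 44, 51 and 69.

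Knop1, a lysine-rich nucleolar protein, and Esr1, the oestrogen receptor alpha, had their highest counts with exon 5. Knop1 had 71, 36 and 307 counts with exon 5 and 6, 36 and 19 without it, and was at least 12.5-fold and 2.03-fold higher than the inputs (adjusted p = 0.0198 and 0.0468). A single library with exon 5 held most of its counts. Esr1 had 177, 26 and 111 counts, then 40, 20 and 22, and was at least 10.8-fold and 3.25-fold higher (adjusted p = 0.0202 and 0.0332). In the direct comparison of the isoforms neither passed (adjusted p = 0.999 for both).

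Other named regions also had no input count, and with exon 5 their bounds were smaller than those of Pde10a, Knop1, Esr1, Ncoa2 and Klhl29. With exon 5 and without it, Tmed8, of the p24 family of cargo receptors, was at least 7.02-fold and 6.03-fold higher, the transcriptional repressor Hic2 6.58-fold and 6.01-fold, the zinc finger gene Zfp41 6.58-fold and 5.08-fold, the podosome scaffold Sh3pxd2b 6.50-fold and 3.03-fold and the endonuclease subunit Eme2 6.48-fold and 2.09-fold. Sbno1, a strawberry notch homologue, was at least 4.10-fold and 6.07-fold higher, the beta-catenin regulator Amer1 4.73-fold and 5.63-fold and Klhl28 2.99-fold and 7.86-fold. Each of these 8 passed the test with both isoforms, with adjusted p between 0.0183 (Tmed8) and 0.0486 (Eme2). The endocytic adaptor Ston2 passed without exon 5 (at least 6.19-fold, adjusted p = 0.0421), where 167 of its 174 counts came from 1 library.

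By edgeR the regions that fell were few, and several were unusually long. At an unadjusted p under 0.05, edgeR gave 33 and 37 lower (4.01% and 4.50%, against 3.03% and 2.27% of all). DESeq2 called 39 and 44 lower (4.86% and 5.59%, against 2.96% and 3.23%). For limma-voom these were 13 and 14 (1.58% and 1.70%, against 0.823% for both). The regions below are those called by edgeR. D10Wsu102e (chr10:83360221-83368835) had 383, 293 and 512 counts with exon 5, 214, 401 and 563 without it and 712, 1137 and 691 in the inputs, which are the shallower libraries. Its level was 3.31 ± 0.607, 2.85 ± 0.384 and 60.0 ± 12.7 RPKM, and every isoform library lay below every input. The log2 fold change was -2.80 ± 0.55 (adjusted p = 0.0155) with exon 5 and -2.85 ± 0.56 (adjusted p = 0.0116) without it. It alone held 5.45% to 7.78% of the members' counts in the inputs, against 0.475% to 0.673% in the isoform libraries. Its listed 3' UTR is far longer than the gene, and whether these counts come from D10Wsu102e was not tested.

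Hnrnpr, an RNA-binding hnRNP protein with a listed 3' UTR of 19422 bases, had 2, 31 and 78 counts with exon 5, 22, 40 and 173 without it and 110, 311 and 34 in the inputs. It fell by 3.79 ± 1.18 on the log2 scale with exon 5 (adjusted p = 0.0462), and the value without exon 5 was -2.81 (adjusted p = 0.0926). Ncbp3, a nuclear cap-binding protein (10144 bases), had 50, 101 and 57, then 25, 62 and 34, against 154, 281 and 69. It fell by 3.65 ± 0.96 without exon 5 (adjusted p = 0.0241), and the value with exon 5 was -2.87 (adjusted p = 0.0503). Scaled to depth, each isoform library lay below each input in Ncbp3 for both isoforms and in Hnrnpr with exon 5 only.

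The third region that fell without exon 5 had no symbol in the files. Of the other 4 regions that fell with exon 5, 1 had no symbol, and 3 are named here after their values were seen. Caprin1, an RNA-binding protein of stress granules, had 103, 80 and 75 counts with exon 5 and 218, 26 and 350 in the inputs, and these overlapped after scaling (-2.94, adjusted p = 0.0491). The neurotrophin receptor gene Ntrk2 had 0, 0 and 0 counts with exon 5 against 5, 14 and 10 in the inputs, and Armc8, of a ubiquitin ligase complex, 0, 0 and 0 against 5, 8 and 2. At 3 counts per isoform library, Ntrk2 was at least 10.2-fold lower and Armc8 at least 5.14-fold lower than the inputs (adjusted p = 0.0397 and 0.0409). Neither had a count with exon 5, so both passed the low-count filter through the other groups and could only be called lower. The other very long regions, Macir, Ntrk3 (19170 bases) and Zbtb37 (17302 bases), did not pass in either direction.

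By edgeR with TMM scaling, a larger share of the CDS of the same genes rose than of CDS in general, the reverse of the picture in the 3' UTR. Of 721 tested, 131 rose with exon 5 (18.2%, against 13.9% of all 6376 CDS tested) and 104 without it (14.4%, against 11.8%). None fell with either isoform by edgeR, where 0.878% and 0.439% of all CDS fell. CDS with no input count, 219 of the 721 and 1624 of the 6376, could not be called lower. At an unadjusted p under 0.05, 3 and 6 of the members' CDS were lower (0.416% and 0.832%, against 2.42% and 1.73% of all). DESeq2 called 6 and 7 lower (0.969% and 1.15%, against 4.43% and 3.66%) and limma-voom 0 and 0 (against 0.769% and 0.674%). The median log2 fold change was 2.19 and 2.02 for the members against 1.58 and 1.59 for all CDS. With CDS that had no input count set to their bound, it was 1.12 and 1.13 against 0.90 and 0.89. The CDS calls depend on scaling, since with DESeq2 size factors 3 and 1 members passed and with library totals alone 2 and 1, and none passed when only the 2 groups compared were fitted. Among genes with a 3' UTR above 8000 bases 26.1% of the tested CDS rose with exon 5, against 18.6% for 3' UTRs of 4000 to 5000 bases.

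**Figure D4:**
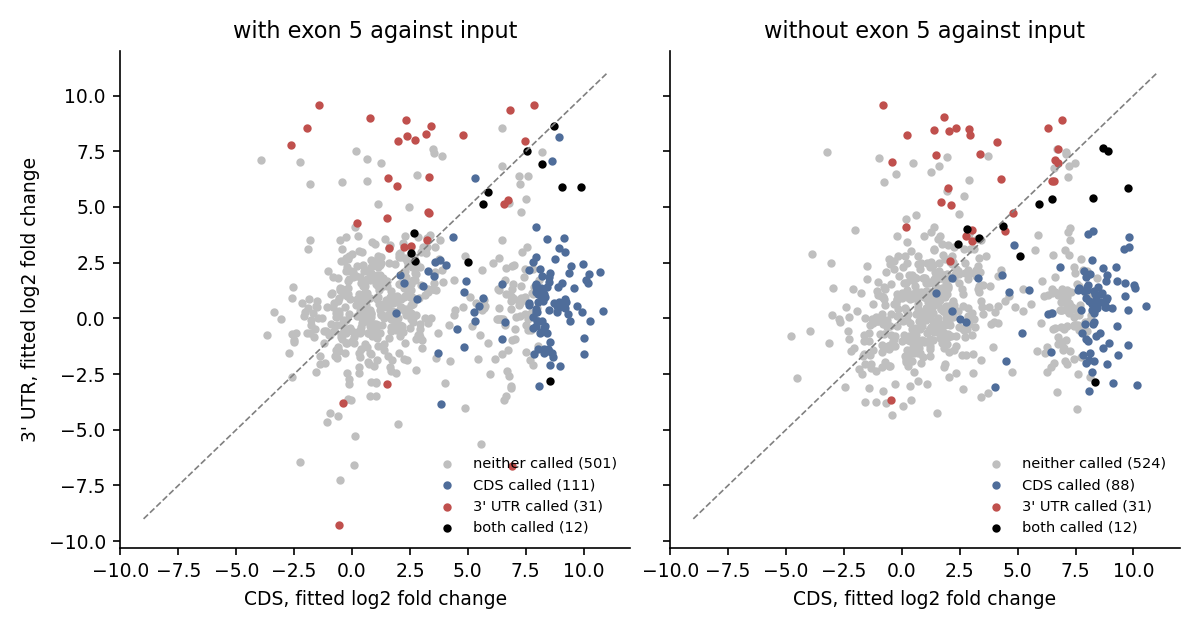
Fitted log2 fold change over the inputs of the 3' UTR (vertical) against that of the CDS (horizontal) for 655 genes with a long 3' UTR tested in both parts, 1 point per gene, with exon 5 on the left and without it on the right; colours show which part passed the test and the dashed line marks equal values. Most points lie below the line (450 and 453 of 655), and 11 genes passed as higher in both parts in each panel. Each part was fitted and TMM-scaled on its own, so the line does not mark a common scale.

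For 655 genes both parts were tested. With exon 5, 38 of these rose in the 3' UTR, 123 in the CDS and 11 in both, and without exon 5 the numbers were 41, 100 and 11. The fitted 3' UTR change was below that of the CDS in 450 genes with exon 5 and in 453 without it. Each part was fitted and TMM-scaled on its own, so the 2 changes are not on a common scale. Over all features tested the median was also lower in the 3' UTR, at 1.37 and 1.41 against 1.58 and 1.59. The same count was not made over all genes. D10Wsu102e was the only gene called lower in the 3' UTR and higher in the CDS, where it had 46, 70 and 50 counts with exon 5, 25, 58 and 105 without it and 0 in the inputs. Without an input count, its CDS could only be called higher.

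A direct test of the 3' UTR relative to the CDS, in which library size cancels, could be made for 894 members. With each isoform 6 were lower than in the inputs (0.671%, against 0.173% of all 6929 genes tested with exon 5 and 0.159% without it) and none higher (against 0.0144% and 0.0% of all). At an unadjusted p under 0.05, edgeR gave 174 lower (19.5%, against 8.77% of all) and 14 higher (1.57%, against 3.62%) with exon 5, and 199 lower (22.3%, against 9.01%) and 7 higher (0.783%, against 3.07%) without it. DESeq2 called 104 of 692 members lower (15.0%, against 6.7% of all) and 6 higher (0.867%, against 1.37%) with exon 5. Without it, DESeq2 called 117 of 590 lower (19.8%, against 8.26%) and 1 higher (0.169%, against 1.46%). For diffSpliceDGE of edgeR, with 662 members tested, these were 37 (5.59%, against 2.17%) and 1 (0.151%, against 0.25%) with exon 5, and 32 (4.83%, against 1.72%) and 1 (0.151%, against 0.2%) without it. The 5 of the 6 genes called by edgeR that had no CDS count in any input were D10Wsu102e, Cbx5, Zfp871, Hspa4l and Shprh. Their ratios can only be bounded, at 9 CDS counts over the 3 inputs. With no CDS count in the inputs, these ratios could only be called lower.

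For D10Wsu102e the ratio of 3' UTR to CDS counts was 7.16 with exon 5 and 6.27 without it, at least 39.4-fold and 45.0-fold lower than in the inputs (adjusted p = 0.000769 and 0.000678). As its listed 3' UTR is longer than the gene, this ratio may include counts from outside D10Wsu102e. Cbx5 encodes the heterochromatin protein HP1 alpha. Its 3' UTR had 217, 113 and 156 counts, then 53, 139 and 309, and 140, 181 and 112 in the inputs, and its CDS had 51, 44 and 76, then 40, 133 and 208, and 0, 0 and 0. The ratio was at least 16.9-fold and 36.6-fold lower than in the inputs (adjusted p = 0.0417 and 0.0114). Shprh, a helicase with ubiquitin ligase activity in DNA repair, had 38, 25 and 14 counts, then 6, 16 and 8, and 17, 33 and 27 in the 3' UTR, and 204, 106 and 167, then 156, 175 and 250, and 0, 0 and 0 in the CDS. It was at least 53.0-fold and 166-fold lower (adjusted p = 0.0417 and 0.0114).

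In all 3 of these genes the inputs had counts in the 3' UTR in every library and none in the CDS, and the isoforms had both. Zfp871, a zinc finger gene, was at least 24.8-fold and 20.8-fold lower (adjusted p = 0.0417 and 0.0307), and Hspa4l, a chaperone of the Hsp110 family, at least 30.7-fold and 39.5-fold lower (adjusted p = 0.046 and 0.0375). The sixth gene, Ddr2, a collagen receptor named after its values were seen, had 1 CDS count in the inputs and 1, 81 and 101 3' UTR counts there (adjusted p = 0.047 and 0.0375). Leaving out 1 library at a time kept the D10Wsu102e call in 9 of 9 cases with each isoform. For Cbx5 and Shprh it was kept in 4 of 9 with exon 5 and 7 of 9 without it, for Zfp871 in 4 and 3, and for Hspa4l in 3 and 3.

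No long 3' UTR passed the test between the isoforms. Of 822 tested, 0 were called by edgeR in either direction (0.0% of all 4984 tested), with the lowest adjusted p at 0.999. DESeq2 and limma-voom gave 0 as well. At an unadjusted p under 0.05, 11 members differed (1.34%, against 1.87% of all 3' UTRs tested), 4 higher and 7 lower with exon 5. The CDS gave 0 (0.0% of all 6376 tested), and so did the 3' UTR relative to the CDS (0.0% of all 6929). At an unadjusted p under 0.05 these were 2 (0.277%, against 1.29% of all CDS) and 16 (1.79%, against 1.82% of all genes tested). Simulated 4-fold changes were often missed by the 3' UTR test and the test relative to the CDS, so 0 calls do not show that the isoforms are alike.

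The 3 libraries with exon 5 all lay above the 3 without it in 69 members and below them in 46 (8.39% and 5.60%, against 5.06% and 7.76% of all 3' UTRs tested). Zdbf2 and Nfat5 were among those above, with log2 fold changes of 0.75 ± 0.72 and 0.91 ± 0.69. Ank3, the scaffold of the axon initial segment, had 273, 113 and 258 counts with exon 5 and 20, 56 and 153 without it (1.70 ± 1.00), and Knop1 had 2.62 ± 1.22. Trim71, a regulator of mRNA in embryonic cells, and Arhgef12, an activator of RhoA, lay below, at -0.91 ± 1.06 and -0.41 ± 1.12. Each of these 6 had an adjusted p of 0.999.

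**Figure D5:**
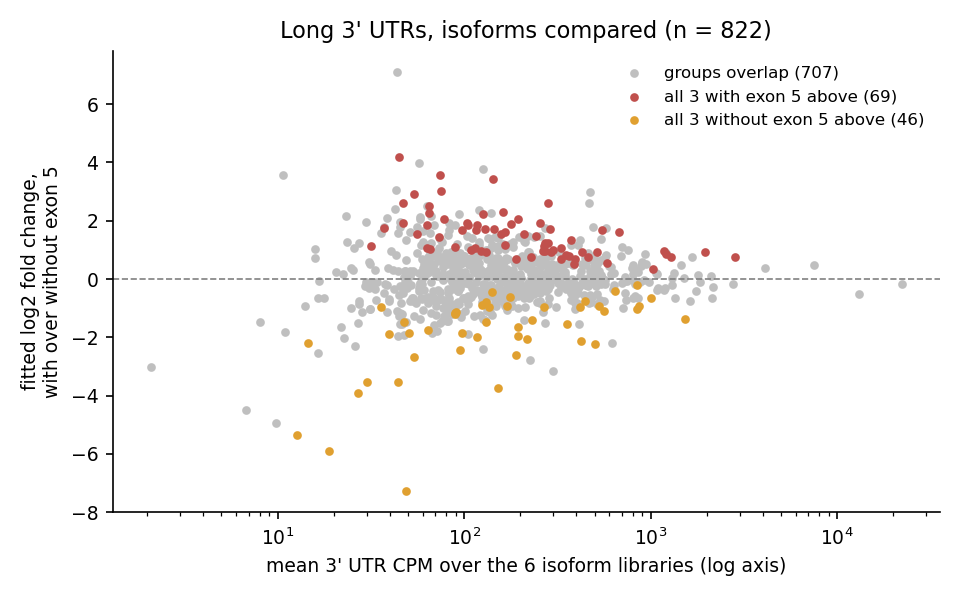
Fitted log2 fold change with over without exon 5 (vertical) against the mean 3' UTR CPM of the 6 isoform libraries (horizontal, log axis) for 822 long 3' UTRs, 1 point per region; colours mark regions whose 3 libraries of an isoform all lie above (69) or below (46) those of the other. The spread narrows as the level rises, and no region passed the test.

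In the authors' deposited table, 437 of the members had a 3' UTR class. It assigned 356 (81.5%) to both isoforms, 60 (13.7%) to the isoform with exon 5 and 21 (4.81%) to the isoform without it. For all 2787 3' UTRs in the authors' deposited table the shares were 80.0%, 9.87% and 10.1%. Of the genes above, that deposited table assigned Knop1 (log2 fold change 2.74), Ank3 (1.89), Esr1 (1.86), Eme2 (1.76), Sh3pxd2b (1.23) and Nfat5 (1.05) to the isoform with exon 5, and Klhl28 (-1.20) and Armc8 (-6.91) to the isoform without it. Avl9 (-0.02) and Fbxl20 (-0.36) were in the class of both in the authors' deposited table.

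Grouped by function, 7 of 8 lists of members had a lower median fold change over the inputs in the 3' UTR than in the CDS, with both isoforms. The 2 parts were scaled separately, and the median of all features was lower in the 3' UTR as well. Over all features tested, 10.1% and 12.3% of 3' UTRs and 13.9% and 11.8% of CDS rose with exon 5 and without it. The lists are small, and whether the count of any list differs from these shares was not tested. Of 20 members that encode RNA-binding and microRNA pathway proteins, 0 passed edgeR's test in the 3' UTR with either isoform (1 and 2 at an unadjusted p under 0.05; 0 and 3 by DESeq2, 0 and 3 by limma-voom), and the CDS of 4 with exon 5 (Ago3, Lin28b, Msi2 and Trim71) and 3 without it rose. Ago2, the slicer of the microRNA pathway with a 3' UTR of 11220 bases, had 172, 198 and 334 counts with exon 5, 92, 155 and 316 without it and 14, 57 and 65 in the inputs (log2 fold changes 0.62 and 0.23, adjusted p = 0.688 and 0.895). The groups overlapped after scaling. The list's median log2 fold change was 0.31 and 0.10 in the 3' UTR and 1.31 and 1.70 in the CDS.

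Of 26 transcription factors 23 were tested, and 0 passed edgeR's test in the 3' UTR with either isoform (3 and 4 at an unadjusted p under 0.05; 4 and 2 by DESeq2, 0 and 0 by limma-voom). The CDS of 7 rose with exon 5 (Sp1, Nfat5, E2f7, Zbtb41, Bach2, Onecut2 and Foxk1) and of 5 without it. Their median was 1.15 and 0.69 in the 3' UTR against 4.51 and 4.50 in the CDS, where many had no input count. Of 9 chromatin regulators the 3' UTR of Ncoa2 alone rose, with both isoforms, and 0 passed in the CDS by edgeR (1 and 1 at an unadjusted p under 0.05; 1 and 1 by DESeq2, 0 and 0 by limma-voom). The median of this list was 2.45 and 2.15 in the 3' UTR and 0.80 and 1.26 in the CDS, the order opposite to that of the other 7 lists.

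Of 15 genes of synapse, axon guidance and adhesion 10 were tested, of which Nfasc, an adhesion protein of the axon initial segment, rose and Ntrk2 fell with exon 5, and 0 passed without it by edgeR (2 at an unadjusted p under 0.05; 2 by DESeq2, 1 by limma-voom). Nfasc had 33, 69 and 139 counts with exon 5 against 1, 0 and 0 in the inputs, a ratio of summed CPM of 73.9 with a 95% counting interval from 13.1 to 2929 (adjusted p = 0.0336). Of 13 ion channels and transporters 11 were tested, and Slc4a8, a bicarbonate transporter, rose with both isoforms (log2 fold changes 4.27 and 4.09, adjusted p = 0.0468 and 0.0486). It had 158, 176 and 341 counts, then 38, 188 and 452, against 0, 11 and 0 in the inputs. The CDS of Scn8a, a sodium channel, rose with exon 5 (adjusted p = 0.0365).

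Of 27 kinases, phosphatases and regulators of small GTPases 24 were tested. Irs1, the adaptor of the insulin receptor, rose in the 3' UTR with both isoforms, with 180, 172 and 514 counts, then 167, 119 and 266, against 0, 5 and 0 (log2 fold changes 5.68 and 5.14, adjusted p = 0.0202 and 0.0232). Its CDS rose by 5.85 and 5.92 (adjusted p = 0.0141 and 0.0148). The CDS of 7 genes of this list rose with exon 5 and of 6 without it. Of 22 members of a list drawn up for ubiquitin ligases and proteases, Fbxl20 and Klhl28 rose in the 3' UTR with both isoforms and Usp6nl without exon 5, and the CDS of 5 and 4 rose. Usp6nl encodes a GTPase-activating protein of Rab proteins and Ubn2, also on that list, a partner of a histone chaperone. Of the 20 members left without these 2, a trimming made after their values were seen, 2 rose in the 3' UTR with each isoform and 4 and 3 in the CDS. Of 15 genes of the cytoskeleton and membrane traffic 13 were tested, Avl9 alone rose in the 3' UTR, and the CDS of 3 (Dclk1, Avl9 and Map1b) and 4 (with Exoc5) rose.

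At the length limit the regions did not stand apart by count. The 3 shortest members with 10 or more counts were Thap4 (4001 bases), Lrrc8b (4002 bases) and Edc3 (4007 bases), with 67, 303 and 109 counts over all libraries. The 3 longest regions just outside were Tsc1 (3997 bases), Icmt (3998 bases) and Prkacb (3999 bases), with 827, 200 and 223 counts. With the limit at 5000 bases the density ratio was 0.266, 0.230 and 0.887 in place of 0.299, 0.275 and 0.928, and at 3000 bases it was 0.351, 0.326 and 0.952.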

How the data were processed

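The authors deposited raw read counts per gene for the 5' UTR, CDS and 3' UTR of each library, and part lengths in bases, per the file headers. Per the submitters' processing notes, TopHat2, DESeq2 and the build mm10 were used. The counting tool, strand handling, filters and collapsing of duplicates were not given in the sources used here. Intervals and bounds therefore cover counting error only. A deposited table also holds the authors' log2 fold changes between the isoforms, with an isoform class. Of the per-sample columns, 27 columns of normalized signal and totals were not used.

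Counts of all genes were tested with edgeR 4.0.16 (quasi-likelihood F-test, robust, TMM, filterByExpr with a minimum count of 10 and total of 15), with all 9 libraries in 1 fit and Benjamini-Hochberg adjustment over all features at 0.05. The 3' UTR relative to the CDS was tested on 18 columns with library as a block, where each part had 10 or more counts. The code was tested on simulated data, with the same spread for all genes, in which 200 genes were changed. Of genes changed 4-fold up and down, the 3' UTR test recovered 23 of 50 and 5 of 45 against the inputs. Between the isoforms it recovered 24 of 50 and 10 of 45. The test of the 3' UTR relative to the CDS recovered 0 of 50 and 0 of 50 against the inputs. Between the isoforms that test recovered 7 of 50 and 0 of 50. CPM are per 1000000 counts of the part, TMM-scaled. RPKM are per kilobase of the part and 1000000 counts of the library. Density ratios and shares were given without a test. Replicates were harvested on separate days per the labels, so within each isoform the spread is that between those cultures. The inputs each came from a different line, so their spread mixes line with harvest day, and these cannot be separated. The p-values rest on the spread of isoforms and inputs together.

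Named regions are the 10 with the highest mean CPM in the isoform libraries, the 5 longest, the largest changes among called regions whose groups do not overlap, examples of 8 functional lists, and the 3 regions on each side of the length limit. Members and lists were chosen with earlier results of these data known. Gene coordinates are RefSeq's on GRCm38.p6, the mm10 assembly. Alternatives were DESeq2 1.42.0, limma 3.58.1 (voom), other scalings, filters, replicate blocks, length limits and leaving out each library.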

Additional observations from a re-analysis of the deposited data

Results flagged for a closer look

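The 5' UTRs of the same genes, which no comparison above used, held more of a library in the isoforms than in the inputs. Of the genes with a long 3' UTR, 541 had a 5' UTR entry. Their 5' UTR counts came to 5526 ± 681 per 1000000 counts of the library with exon 5 (SD, n = 3) and 5881 ± 455 without it, against 3249 ± 130 in the inputs. Every isoform library (5003 to 6336) lay above every input (3117 to 3377). As a share of all 5' UTR counts this was 17.3% and 16.7% against 10.5%.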

How the results depend on the processing

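Comparisons between the isoforms gave 0 calls under every alternative run, in the 3' UTR, the CDS and the 3' UTR relative to the CDS, with leaving out each library giving 0 to 0. Against the inputs, calls are given first with exon 5 and then without it. For the 3' UTR (50 and 49 calls) DESeq2 gave 148 and 152, limma-voom 76 and 84, library totals alone 28 and 25, scaling by gene totals 23 and 23, no filter 33 with exon 5, a fit of only the 2 groups 3 and 3, limits of 3000 bases 101 and 114 and of 5000 bases 24 and 20. Leaving out 1 library gave 2 to 189 and 2 to 191. For the CDS (131 and 104) DESeq2 size factors gave 3 and 1, library totals alone 2 and 1, only 2 groups 0 and 0, gene totals 182 without exon 5, 3000 bases 217 and 170, 5000 bases 73 and 56, and leaving out 1 library 0 to 297 and 0 to 289. For the 3' UTR relative to the CDS (6 and 6) DESeq2 gave 110 and 118, diffSpliceDGE 38 and 33, no filter 26 and 37, only 2 groups 0 and 0, and leaving out 1 library 1 to 31 and 1 to 36. The causes were not tested.

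Same-numbered libraries of the 2 isoforms correlated at r = 0.029, 0.025 and 0.058 in their deviations from the group means, each library best with its own number, which is too weak to pair them. The replicate block gave 32 and 31 calls in the 3' UTR, 67 and 61 in the CDS and 19 and 18 for the 3' UTR relative to the CDS. The inputs' numbers differ between titles and file headers, and a block by the header numbers, chosen after seeing the data, gave 18 and 26, 68 and 60, and 18 and 19.

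The density ratio with exon 5, without it and in the inputs was 0.289 to 0.312, 0.271 to 0.284 and 0.904 to 0.947 when 1 library was left out. It moved to 0.377 and 0.318 as a median over members, which in the inputs is not finite, to 0.351 and 0.326 at 3000 bases, to 0.266 and 0.230 at 5000 bases, and to 0.250 without exon 5 when the 10 members with most counts were left out. Chosen after seeing the data, without the 17 members longer than their gene it was 0.303, 0.279 and 0.888. The members' share of 3' UTR counts was 23.7% to 24.0%, 20.9% to 21.3% and 22.7% to 23.4% with 1 library left out. It was 18.6%, 16.1% and 20.6% without those 10 members, 39.2%, 35.8% and 35.7% at 3000 bases, 12.8%, 10.96% and 15.2% at 5000 bases, 21.0% and 17.97% in the isoforms without Avl9 and Fbxl20, and 24.9% in the inputs without Lars2 and regions above 20000 bases.

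For the 73 calls of named regions, 294 of 657 fits with 1 library left out and 178 of 547 other alternatives fell short of the threshold, and none of these changed direction. Depth limits the inputs most: 54 tested 3' UTRs and 219 tested CDS of members had no input count.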
